A study of Mus musculus with 35 samples.

Results

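The genes described here encode the subunits of the nuclear corepressor complexes that carry class I histone deacetylases, and they were followed across striata with and without Hdac2 in medium-spiny neurons (MSNs) and with and without the Huntington's disease mutation. The members are the 44 genes of a list of subunits of the SIN3, NuRD, CoREST, NCoR and MIER complexes, chosen by name. They make up 45 of the 39109 entries of the count table, since Mier2 has 2 Ensembl identifiers of which the shorter lies within the longer, so these entries share reads.

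RNA from striata of 35 mice aged 21.7 to 23.0 weeks was sequenced, with 1 library per mouse. The 4 groups were Htt+/+ Hdac2 WT (n = 8, 5 males and 3 females), Htt+/+ Hdac2 KO (n = 9, 5 males and 4 females), HttQ111/+ Hdac2 WT (n = 7, 4 males and 3 females) and HttQ111/+ Hdac2 KO (n = 11, 8 males and 3 females). The HttQ111 allele carries a long CAG tract in the huntingtin gene, of 110 to 140 repeats in HttQ111/+ Hdac2 WT mice and of 110 to 144 repeats in those with Hdac2 KO. Hdac2 KO mice were homozygous for a floxed Hdac2 allele and carried D9-Cre, a Cre transgene driven by the Ppp1r1b (DARPP-32) promoter, so that deletion is directed to MSNs and the other cells of the striatum keep Hdac2. Hdac2 WT mice had the floxed alleles without Cre, 2 Htt+/+ mice among them with 1 floxed allele, so Cre itself and the deletion cannot be told apart. Htt+/+ mice have 7 CAG repeats.

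Class I HDACs have little activity on chromatin by themselves and work as the catalytic core of multi-subunit complexes. HDAC1 and HDAC2 are close relatives that occupy the same position in SIN3, NuRD, CoREST and MIER complexes, whereas HDAC3 works with NCoR and SMRT, and HDAC8 is not known as part of these assemblies. The other subunits provide scaffolds, histone binding, nucleosome remodelling (CHD proteins) or a further enzyme (the histone demethylase KDM1A in CoREST). In neurons these complexes hold genes in a repressed or poised state.

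The KO allele removes exons 2 to 4 of Hdac2, which are shown because the counts used here cannot see their loss. They hold 306 of the 2005 bases (15.3%) of the main annotated transcript of 14 exons (GENCODE M21, GRCm38, plus strand of chromosome 10), a number of bases that divides by 3, and the count table sums the reads of the whole gene.
Hdac2 exon 2, chr10:36985127-36985239: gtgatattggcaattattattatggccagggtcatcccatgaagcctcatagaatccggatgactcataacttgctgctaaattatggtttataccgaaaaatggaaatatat
Hdac2 exon 3, chr10:36986307-36986424: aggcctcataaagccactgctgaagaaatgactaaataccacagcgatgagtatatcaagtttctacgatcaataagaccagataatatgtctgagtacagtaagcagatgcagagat
Hdac2 exon 4, chr10:36988080-36988154: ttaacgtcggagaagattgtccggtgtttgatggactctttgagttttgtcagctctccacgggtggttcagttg

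Whole-gene Hdac2 counts were a little lower in Hdac2 KO mice, past the threshold in HttQ111/+ mice. The lowest, median and highest values, in counts scaled to library size as CPM, were 97.6, 104 and 106.5 CPM in Htt+/+ Hdac2 WT striata, 89.4, 94.4 and 99.2 in Htt+/+ Hdac2 KO, 95.55, 105 and 111 in HttQ111/+ Hdac2 WT, and 89.8, 95.5 and 101 in HttQ111/+ Hdac2 KO striata. The Hdac2 WT and KO ranges overlapped within each Htt genotype. In HttQ111/+ mice Hdac2 was lower in the KO group (log2 fold change -0.12, SE 0.0276, adjusted p = 0.00198). In Htt+/+ mice the difference was of the same sign and missed the threshold (log2 fold change -0.09, SE 0.0324, adjusted p = 0.0552). Under 14 other settings of the fit it passed in 10. The HttQ111/+ call held in 13 of 14 and was lost with extraction date as covariate. The size of these differences does not measure recombination, because a transcript without exons 2 to 4 is still counted and because other striatal cells keep the gene. In bulk tissue fewer cells of a type and less RNA per cell cannot be told apart.

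Libraries held 50970712 to 77867348 counts, and all 45 entries passed the filter of at least 6 counts in every library of a group. Sap30 had the lowest count of any member in a library, 104. MSN markers (9 genes) summed to a median of 8590 CPM (7890 to 9060) in Htt+/+ Hdac2 WT and 8400 (7450 to 8790) in Htt+/+ Hdac2 KO striata. In HttQ111/+ striata the median was 6150 CPM (5720 to 7800) with Hdac2 WT and 7280 (6430 to 8160) with Hdac2 KO. With Hdac2 KO, 2 of these markers rose and 2 fell in Htt+/+ mice, and 2 rose and 0 fell in HttQ111/+ mice. For the Hdac2 KO comparisons in Htt+/+ and HttQ111/+ mice respectively, 4 and 2 of 9 MSN markers passed the test, 0 and 0 of 6 oligodendrocyte markers, 0 and 0 of 6 microglial markers, 1 and 1 of 6 astrocyte markers, 1 and 0 of 6 interneuron markers, 0 and 0 of 3 precursor markers, 0 and 0 of 4 endothelial markers and 1 and 1 of 5 cortical projection neuron markers, whose median log2 fold changes were -0.58 and 0.03. Cortical markers were highest in replicate 7 of the HttQ111/+ Hdac2 WT group (1520 CPM, against 452 to 1120 in the Htt+/+ groups), and oligodendrocyte markers in replicate 1 of the Htt+/+ Hdac2 KO group (9700 CPM, against 5560 to 7600 in Htt+/+ Hdac2 WT). Choroid plexus markers summed to 1.43 to 183 CPM and 1 of 2 tested passed in Htt+/+ mice, as against 0 of 3 in HttQ111/+ mice. The part of cell composition in the results below was not tested. RNA extraction dates nearly followed Hdac2 genotype, as every KO striatum but 2 was extracted on days without a WT striatum of the same Htt genotype, and values within the shared days are given for some members.

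Hdac2 KO came with a rise of 9 and a fall of 3 of the 45 entries in Htt+/+ mice, and with a rise of 5 and a fall of 4 in HttQ111/+ mice, at an adjusted p under 0.05 (edgeR quasi-likelihood test with surrogate variables, Benjamini-Hochberg adjustment over all genes tested). Of all genes tested, 17.8% passed in Htt+/+ mice (9.06% higher and 8.79% lower) and 16.5% in HttQ111/+ mice (7.68% higher and 8.86% lower). The members' shares of 26.7% and 20% lay above these figures, and the difference was not tested. The 20% includes Hdac2, the deleted gene itself, and the members were chosen with earlier results of these data known. These shares are therefore no independent comparison with all genes. The median log2 fold change of the members was 0.04 and 0.02, against -0.0014 and -0.0044 over all genes, and their median absolute log2 fold change was 0.09 and 0.07, against 0.10 and 0.08 over all genes. Passing in both Htt genotypes were 7 members, namely Hdac1, Chd3, Mta3, Ing1 and Suds3 (higher) and Brms1 and Zmym2 (lower). The effect averaged over both genotypes passed for 10 higher and 5 lower members, Hdac2 among the latter, where 25% of all genes passed (12.9% higher and 12.1% lower). The split by direction moved with the covariates. Without surrogate variables Rcor3, Hdac2, Mbd3, Sap30l, Arid4a, Mbd2 and Tbl1x passed in addition in Htt+/+ mice, and Rcor1, Kdm1a and Sin3b no longer did. In Htt+/+ mice 9 rose and 7 fell without surrogate variables and with sex in their place, 8 rose and 6 fell with identifier series (the opening letter of the mouse identifier), and 5 rose and 0 fell with extraction date. In HttQ111/+ mice the splits were 6 and 4, 6 and 4, 7 and 5, and 0 and 0 in the same order. When the fit held extraction date and no surrogate variables, the counts in Htt+/+ and HttQ111/+ mice were 5 (Hdac1, Chd3, Mta3, Ing1 and Sap30l) and 0. The number of all genes that passed moved as well. In Htt+/+ mice it was 3056 of 17126, and 4004 without surrogate variables, 3957 with sex, 3734 with identifier series and 822 with date. In HttQ111/+ mice it was 2841 of 17169, and 2311, 2332, 2892 and 331 in the same order. Without replicate 7 of the HttQ111/+ Hdac2 WT group, which shares in the estimate of the spread and of the surrogate variables, the count in Htt+/+ mice was 19. Over all genes 3555 of 17126 passed in that fit.

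**Figure D1:**
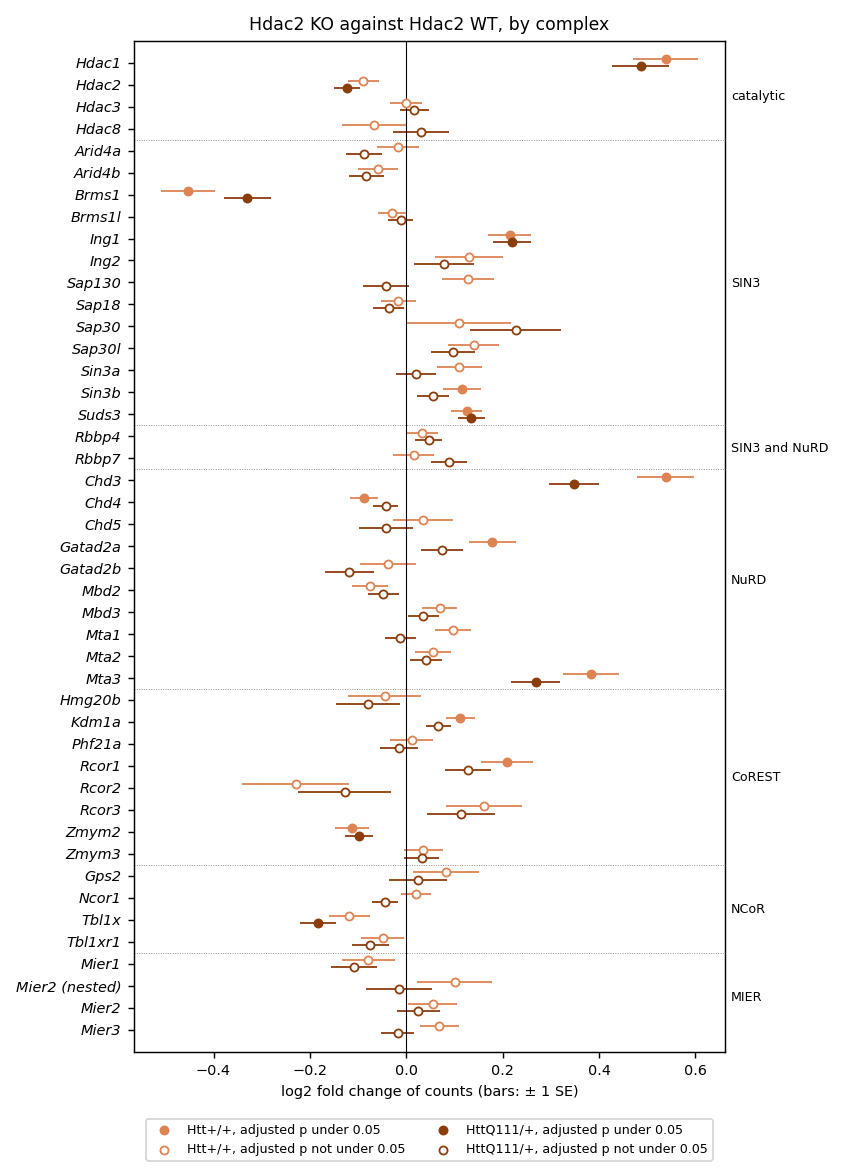
Log2 fold change of Hdac2 KO against Hdac2 WT (x axis, bars ± 1 SE) for the 45 entries (y axis), grouped by complex, in Htt+/+ (light) and HttQ111/+ mice (dark). Filled points passed an adjusted p of 0.05; Hdac1, Chd3 and Mta3 lie farthest to the right and Brms1 farthest to the left in both.

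Among the 4 catalytic subunits, Hdac1 rose, Hdac2 fell as described and the other two did not pass. Hdac1 (ENSMUSG00000028800, chr4:129516104-129542691, minus strand) had lowest, median and highest values of 5.33, 5.895 and 6.82 CPM in Htt+/+ Hdac2 WT striata, 8.37, 8.81 and 9.84 in Htt+/+ Hdac2 KO, 5.73, 6.73 and 7.76 in HttQ111/+ Hdac2 WT, and 8.635, 9.37 and 11.03 in HttQ111/+ Hdac2 KO striata. Every KO library was above every WT library, within each Htt genotype and over all 20 KO and 15 WT libraries, and Hdac1 was the only member for which all KO and all WT libraries were apart. A separation of this kind, over all libraries, was seen for 0.363% of genes tested in the higher direction and 0.248% in the lower. The rise was 1.45-fold in Htt+/+ (log2 fold change 0.54, SE 0.0673, adjusted p = 7.35e-07) and 1.40-fold in HttQ111/+ mice (log2 fold change 0.49, SE 0.0592, adjusted p = 5.49e-07). On 27 May, a date with WT and KO striata of Htt+/+ mice, the KO library had 8.42 CPM against 5.71 to 6.57 in 3 WT libraries, and on 25 May the HttQ111/+ KO library had 8.635 CPM against 6.57 to 7.76 in 2 WT libraries. With extraction date in the fit the estimate stayed past the threshold in Htt+/+ mice (log2 fold change 0.42, adjusted p = 0.00839) and did not in HttQ111/+ mice (0.31, adjusted p = 0.0988).

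Hdac1 counts are uncertain, since part of the gene has a near-identical copy. Of the stretches of 75 bases in annotated Hdac1 transcripts, 28.0% also occur in Gm10093, a processed pseudogene on another chromosome (chr17:78491565-78493541), and reads that fit both equally were dropped by unique alignment. Gm10093 was looked up after the values were seen. It had lowest, median and highest values of 9.48, 10.2 and 10.75 CPM in Htt+/+ Hdac2 WT, 12.8, 13.6 and 15.3 in Htt+/+ Hdac2 KO, 9.89, 11.2 and 13.35 in HttQ111/+ Hdac2 WT and 12.5, 14.6 and 15.8 in HttQ111/+ Hdac2 KO striata. Its log2 fold change for Hdac2 KO was 0.46 in Htt+/+ (SE 0.0662, adjusted p = 6.98e-06) and 0.36 in HttQ111/+ mice (SE 0.0582, adjusted p = 4.76e-05), in the direction of Hdac1. Which locus the reads came from cannot be told apart beyond the aligner's choice. The CPM of Hdac1 and Gm10093 summed had medians of 16.5 and 23.05 in Htt+/+ and 18.3 and 23.95 in HttQ111/+ WT and KO striata.

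Hdac3, the deacetylase of the NCoR complex, stayed within 60.05 to 66.7 CPM in Htt+/+ Hdac2 WT, 61.8 to 67.7 in Htt+/+ Hdac2 KO, 63.9 to 70.55 in HttQ111/+ Hdac2 WT and 63.2 to 73.7 in HttQ111/+ Hdac2 KO striata. Its log2 fold change for Hdac2 KO was 0.00 in Htt+/+ mice (interval of 2 SE on each side, -0.07 to 0.07) and 0.02 in HttQ111/+ mice (-0.04 to 0.08). Hdac8, which is encoded on the X chromosome, was between 13.0 and 17.2 CPM in every library. Its log2 fold change was -0.07 (-0.20 to 0.07) in Htt+/+ and 0.03 (-0.09 to 0.15) in HttQ111/+ mice. These intervals leave out a change of the size measured for Hdac1.

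To compare levels between genes, CPM were divided by the length of annotated exon in kb, a measure that rests on the annotated length and on counts that include introns. In Htt+/+ Hdac2 WT striata Hdac2 was the 5th highest of the 44 genes with a median of 23.2 CPM per kb (21.8 to 23.8), Hdac3 had 15.8 (14.8 to 16.45), Hdac8 2.98 (2.76 to 3.31) and Hdac1 1.71 (1.55 to 1.98). The place of Hdac1, next to lowest, and its ratio to Hdac2 rest on counts without the reads it shares with Gm10093 and are uncertain, since Hdac1 and Gm10093 summed had a median of 16.5 CPM in this group against 5.895 for Hdac1 alone. In Htt+/+ Hdac2 KO striata the medians were 21.1 CPM per kb for Hdac2 and 2.56 for Hdac1. Per 100 units of Hdac2 on this scale, Hdac1 thus had a median of 7.47 in Htt+/+ Hdac2 WT, 12.4 in Htt+/+ Hdac2 KO, 8.795 in HttQ111/+ Hdac2 WT and 13.1 in HttQ111/+ Hdac2 KO striata. The ratio was 6.58 to 9.47 in WT and 11.3 to 14.9 in KO libraries. Its lack of overlap restates the separation of Hdac1 and the lower Hdac2 counts given above, and is no further result. The sum of Hdac1 and Hdac2 had medians of 24.9 and 23.6 CPM per kb in Htt+/+ WT and KO striata and overlapped between them. Hdac2 counts in KO striata still include transcripts without the deleted exons, and those of cells that keep the gene. Neither this sum nor the ratio to Hdac2 therefore measures how much intact message was left in MSNs.

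**Figure D2:**
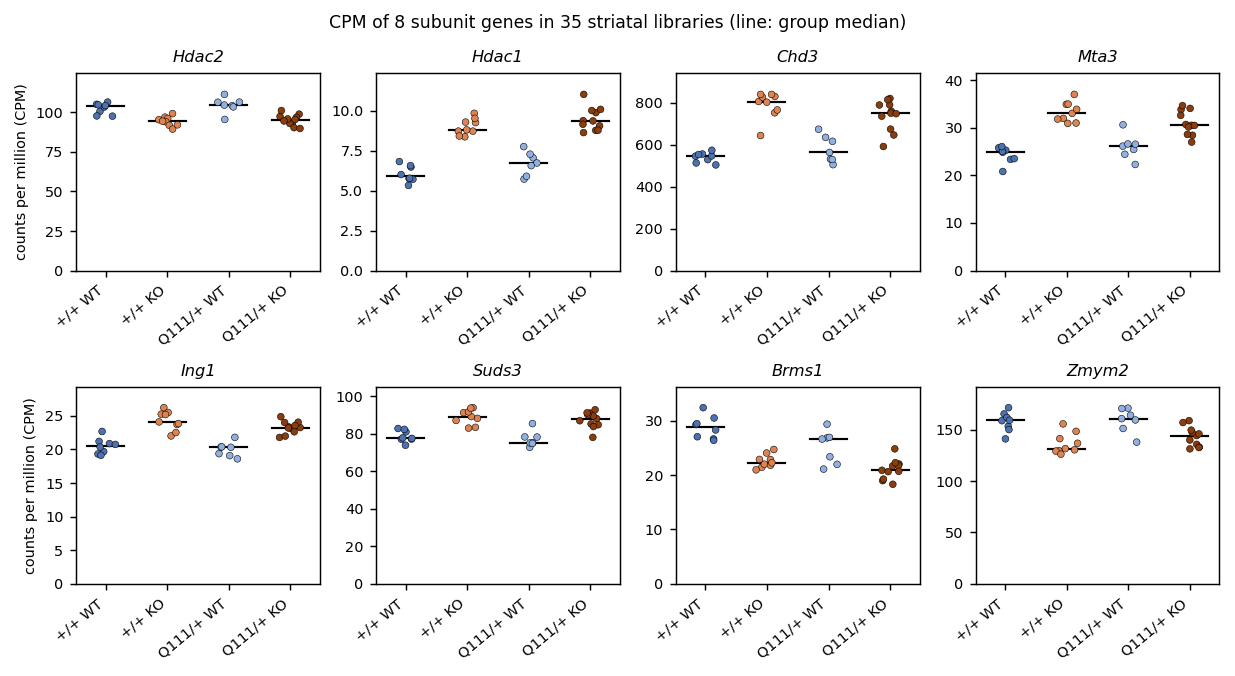
CPM (y axis, from 0) of 8 subunit genes in each of the 35 libraries (points), by genotype group (x axis), with lines at group medians. Hdac1 is higher in every KO than in every WT library, while Hdac2 counts shift slightly downward and the other genes overlap in HttQ111/+ mice.

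The SIN3 complex had the most members tested (13), of which 3 rose and 1 fell in Htt+/+ mice, and 2 rose and 1 fell in HttQ111/+ mice. Brms1 (ENSMUSG00000080268, chr19:5041404-5049917, plus strand), an accessory subunit first described as a suppressor of breast cancer metastasis, was the member with the largest fall. Its lowest, median and highest values were 26.4, 28.8 and 32.4 CPM in Htt+/+ Hdac2 WT striata, 21.0, 22.25 and 24.7 in Htt+/+ Hdac2 KO, 21.1, 26.6 and 29.3 in HttQ111/+ Hdac2 WT, and 18.3, 20.9 and 24.8 in HttQ111/+ Hdac2 KO striata. The Htt+/+ groups did not overlap and the HttQ111/+ groups did. Brms1 was lower in Hdac2 KO by 27.0% in Htt+/+ (log2 fold change -0.45, SE 0.0556, adjusted p = 5.45e-07) and by 20.4% in HttQ111/+ mice (log2 fold change -0.33, SE 0.0486, adjusted p = 1.12e-05). With extraction date in the fit neither passed (log2 fold changes -0.33 and -0.21, adjusted p = 0.0517 and 0.357). Annotation later than that used for counting has a further gene model on the same strand that covers Brms1, and reads in the stretches that overlap cannot be told apart. Brms1l, a paralog in the same complex, was at 76.4 to 84.6 CPM in Htt+/+ Hdac2 WT and 73.1 to 80.8 in Htt+/+ Hdac2 KO striata, and did not pass in either genotype (log2 fold changes -0.03 and -0.01).

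Ing1 (ENSMUSG00000045969, chr8:11556066-11563250, plus strand) encodes the PHD finger subunit by which SIN3 complexes bind methylated histone tails. Its lowest, median and highest values were 19.1, 20.55 and 22.7 CPM in Htt+/+ Hdac2 WT striata, 22.0, 24.1 and 26.2 in Htt+/+ Hdac2 KO, 18.6, 20.3 and 21.8 in HttQ111/+ Hdac2 WT, and 21.8, 23.25 and 24.9 in HttQ111/+ Hdac2 KO striata. In both Htt genotypes the lowest KO library was just under the highest WT library. Ing1 rose 1.16-fold in Htt+/+ (log2 fold change 0.21, SE 0.0446, adjusted p = 7.77e-04) and 1.16-fold in HttQ111/+ mice (log2 fold change 0.22, SE 0.0397, adjusted p = 1.82e-04). Its paralog Ing2 had a larger standard error (log2 fold change 0.13, SE 0.0707 in Htt+/+ mice) and did not pass. Suds3 (ENSMUSG00000066900, chr5:117091682-117115993, minus strand), a scaffold subunit needed for full deacetylase activity of SIN3, had lowest, median and highest values of 73.8, 77.6 and 82.7 CPM in Htt+/+ Hdac2 WT striata, 82.9, 89.05 and 93.8 in Htt+/+ Hdac2 KO, 72.7, 75.1 and 85.3 in HttQ111/+ Hdac2 WT, and 78, 88.0 and 92.7 in HttQ111/+ Hdac2 KO striata. The Htt+/+ groups did not overlap, and the HttQ111/+ groups overlapped. Its rise was small, 1.09-fold in Htt+/+ (log2 fold change 0.13, SE 0.0316, adjusted p = 0.00486) and 1.10-fold in HttQ111/+ mice (log2 fold change 0.13, SE 0.0283, adjusted p = 9.91e-04).

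Sin3b, 1 of the paired scaffolds that name the complex, passed in Htt+/+ mice alone (log2 fold change 0.12, SE 0.0388, adjusted p = 0.0362), with 61.2 to 69.5 CPM in WT and 65.3 to 73.7 CPM in KO striata. In HttQ111/+ mice its log2 fold change was 0.06 (adjusted p = 0.296), and the difference between the genotypes was itself not past the threshold (-0.05, adjusted p = 0.931). Sin3a had log2 fold changes of 0.11 and 0.02, neither past the threshold. Sap30l, a small bridging subunit, passed for the effect averaged over both genotypes (log2 fold change 0.12, SE 0.0385, adjusted p = 0.0211), with group medians of 14.1 and 16.7 CPM in Htt+/+ WT and KO and 14.1 and 16.8 CPM in HttQ111/+ WT and KO striata. The remaining members of this complex, Sap18, Sap30, Sap130, Arid4a and Arid4b, passed in neither genotype, with log2 fold changes between -0.09 (Arid4a, HttQ111/+) and 0.23 (Sap30, HttQ111/+). Rbbp4 and Rbbp7, histone chaperones shared by SIN3 and NuRD, had log2 fold changes of 0.02 to 0.09 and did not pass in either genotype. Sap18 shares 12.7% of its stretches of 75 bases with Sap18b, so its counts are uncertain in the way described for Hdac1.

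Promoters of members that rose together are shown as a record of their sequence, since regulation at these sites was not measured. RefSeq promoters (GRCm38.p6) were at hand for 36 of the 44 genes, and of the 5 genes that rose in both Htt genotypes these were Ing1 and Suds3. Each line gives the 250 bases before the annotated start, 5′ to 3′ on the gene's strand, with capitals at GGGCGG or its reverse complement CCGCCC, the core of the GC box.
Ing1 promoter, chr8:11555815-11556064: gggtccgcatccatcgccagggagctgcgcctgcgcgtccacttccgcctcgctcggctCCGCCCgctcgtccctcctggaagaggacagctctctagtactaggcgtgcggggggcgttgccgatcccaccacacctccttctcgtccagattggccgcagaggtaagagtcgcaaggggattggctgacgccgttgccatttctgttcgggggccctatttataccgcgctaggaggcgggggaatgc
Suds3 promoter, chr5:117115994-117116243: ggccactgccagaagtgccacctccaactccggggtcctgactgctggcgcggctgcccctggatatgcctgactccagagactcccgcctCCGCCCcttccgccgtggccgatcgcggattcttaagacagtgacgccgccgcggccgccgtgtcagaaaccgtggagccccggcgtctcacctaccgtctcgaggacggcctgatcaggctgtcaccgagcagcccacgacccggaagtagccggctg
GGGCGG on either strand was in 28 of 36 member promoters (77.8%) and in 32.7% of all 32817 promoters of the same length. CCAAT on either strand was in 18 of 36 (50%) against 33.8%, and CACGTG in 2 of 36 (5.56%) against 6.02%. The median GC content was 65.2% in member promoters and 52.4% in all, and GGGCGG is itself GC-rich. These shares describe the complexes as a group, in which most genes did not move.

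In the NuRD complex, 3 of 10 members rose and 1 fell in Htt+/+ mice, and 2 rose in HttQ111/+ mice. Chd3 (ENSMUSG00000018474, chr11:69343273-69369391, minus strand), 1 of the alternative remodelling ATPases of NuRD, had lowest, median and highest values of 504, 546 and 573 CPM in Htt+/+ Hdac2 WT striata, 644, 806 and 839.7 in Htt+/+ Hdac2 KO, 505, 563 and 673.5 in HttQ111/+ Hdac2 WT, and 591, 749.9 and 820.3 in HttQ111/+ Hdac2 KO striata. KO libraries were all above WT libraries in Htt+/+ mice, and the ranges overlapped in HttQ111/+ mice. The rise was 1.45-fold in Htt+/+ (log2 fold change 0.54, SE 0.0591, adjusted p = 7.29e-08) and 1.27-fold in HttQ111/+ mice (log2 fold change 0.35, SE 0.052, adjusted p = 1.32e-05). On the 2 shared extraction dates the KO library was above its WT libraries, with 839.5 against 547 to 573 CPM in Htt+/+ and 646 against 529 to 616 CPM in HttQ111/+ mice. With extraction date in the fit the adjusted p was 0.000814 in Htt+/+ and 0.0678 in HttQ111/+ mice. The other ATPases differed in direction: Chd4 was lower in Htt+/+ Hdac2 KO mice (log2 fold change -0.09, SE 0.0292, adjusted p = 0.0341), with 276.5 to 317 CPM in WT and 258 to 284 CPM in KO striata, while Chd5 did not pass (log2 fold changes 0.04 and -0.04). On the scale of CPM per kb, Chd3 had the highest level of all 44 genes (median 64.65 in Htt+/+ Hdac2 WT), and its share of the sum of Chd3, Chd4 and Chd5 had a median of 55.7% in Htt+/+ Hdac2 WT, 65.75% in Htt+/+ Hdac2 KO, 56.7% in HttQ111/+ Hdac2 WT and 64.1% in HttQ111/+ Hdac2 KO striata. This share was 53% to 59.7% in WT and 60.8% to 67.3% in KO libraries. It is built from the Chd3 and Chd4 counts given above, so its lack of overlap is no further result. Chd3 alone overlapped in HttQ111/+ mice.

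Mta3 (ENSMUSG00000055817, chr17:83706163-83820216, plus strand) belongs to the alternative MTA scaffolds onto which NuRD places its deacetylase. Its lowest, median and highest values were 20.8, 24.95 and 26.05 CPM in Htt+/+ Hdac2 WT striata, 30.9, 33.0 and 37.0 in Htt+/+ Hdac2 KO, 22.3, 26.1 and 30.6 in HttQ111/+ Hdac2 WT, and 27.0, 30.5 and 34.65 in HttQ111/+ Hdac2 KO striata. The Htt+/+ groups were apart, and the HttQ111/+ groups overlapped. Mta3 rose by 30.4% in Htt+/+ (log2 fold change 0.38, SE 0.0576, adjusted p = 1.28e-05) and by 20.5% in HttQ111/+ mice (log2 fold change 0.27, SE 0.0505, adjusted p = 2.86e-04), and with extraction date in the fit the adjusted p was 0.00107 and 0.08. Mta1 and Mta2, the more abundant scaffolds per exon length, did not pass (log2 fold changes 0.10 and -0.01 for Mta1, 0.06 and 0.04 for Mta2). The share of Mta3 in the sum of the Mta genes per kb had a median of 14.4% in Htt+/+ Hdac2 WT and 18.1% in Htt+/+ Hdac2 KO striata, and of 15.4% and 18.2% in HttQ111/+ mice. This share rests on the Mta3 counts given above and is no further result. Gatad2a, a linker subunit of NuRD, passed in Htt+/+ mice alone (log2 fold change 0.18, SE 0.0488, adjusted p = 0.00944), with 19.5 to 23.4 CPM in WT and 22.6 to 25.9 CPM in KO striata. Its paralog Gatad2b had the opposite sign and did not pass (-0.04 and -0.12), nor did the methyl-CpG binding subunits Mbd2 (-0.07 and -0.05) and Mbd3 (0.07 and 0.04).

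**Figure D3:**
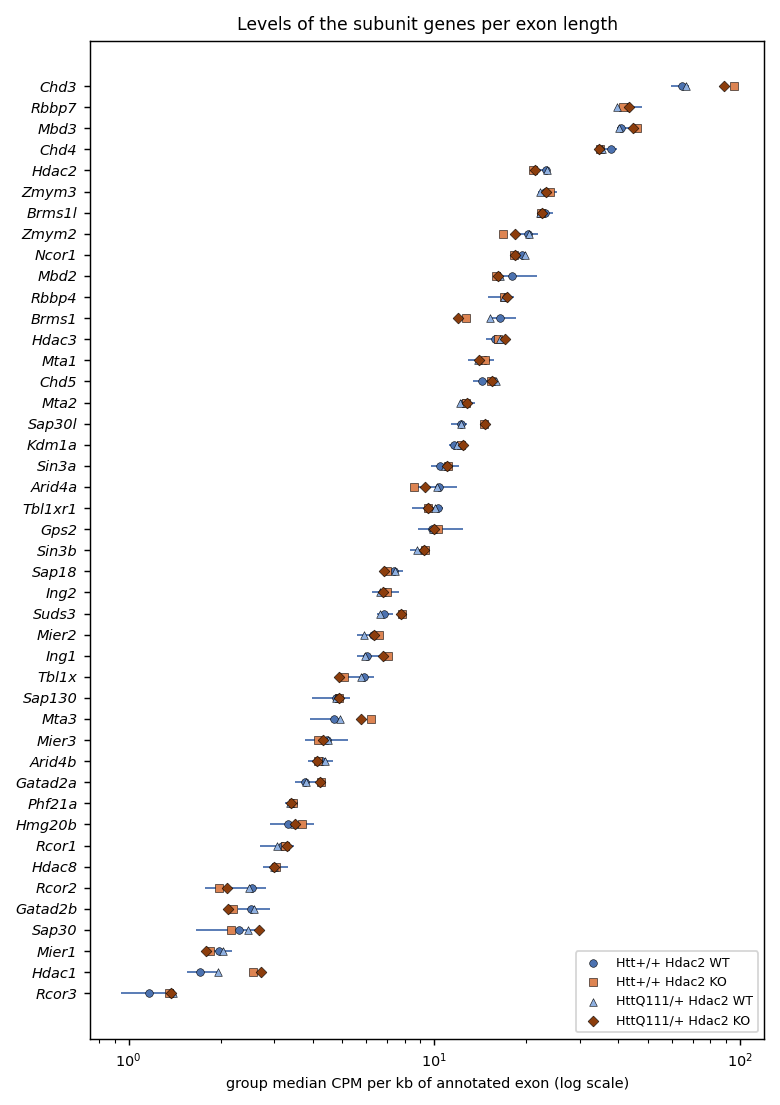
Group medians of CPM per kb of annotated exon (x axis, log scale) of the 44 genes (y axis), in order of their level in Htt+/+ Hdac2 WT striata, whose lowest to highest library is drawn as a line. Chd3 is the highest and Rcor3 the lowest; Hdac1, next to lowest on counts without the reads it shares with Gm10093, is higher in both KO groups.

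In the CoREST complex, 2 of 8 members rose and 1 fell in Htt+/+ mice, and 1 fell in HttQ111/+ mice. Rcor1, the scaffold after which the complex is named, was higher in Htt+/+ Hdac2 KO mice (log2 fold change 0.21, SE 0.0544, adjusted p = 0.00633), although the unadjusted ranges of 15.3 to 19.8 CPM in WT and 16.5 to 21.7 CPM in KO striata overlapped. Without surrogate variables it did not pass (adjusted p = 0.273). Kdm1a, the demethylase of the complex, was likewise higher (log2 fold change 0.11, SE 0.0305, adjusted p = 0.0091), with 57.9 to 63.3 and 58.2 to 67.9 CPM, and did not pass without surrogate variables (adjusted p = 0.0883). Sin3b shared this property (adjusted p = 0.306). In HttQ111/+ mice neither Rcor1 (log2 fold change 0.13, adjusted p = 0.066) nor Kdm1a (0.07, adjusted p = 0.0876) passed. Zmym2, a zinc finger partner of the complex, was lower in both genotypes (log2 fold change -0.11, SE 0.0346, adjusted p = 0.0212 in Htt+/+, and log2 fold change -0.10, SE 0.0296, adjusted p = 0.02 in HttQ111/+ mice). Its ranges were 141 to 171 and 126 to 156 CPM in Htt+/+ WT and KO, and 138 to 171 and 131 to 159 CPM in HttQ111/+ WT and KO striata, and they overlapped. Rcor2, Rcor3, Phf21a, Hmg20b and Zmym3 passed in neither genotype, with log2 fold changes from -0.23 (Rcor2) to 0.16 (Rcor3), both in Htt+/+ mice.

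Of the 4 NCoR members beside Hdac3, 0 passed in Htt+/+ and 1 fell in HttQ111/+ mice. Tbl1x, a subunit that couples NCoR to the ubiquitin system and is encoded on the X chromosome, was lower in HttQ111/+ Hdac2 KO mice (log2 fold change -0.18, SE 0.0375, adjusted p = 7.36e-04), with 35.3 to 43.1 CPM in WT and 27.0 to 38.6 CPM in KO striata. In Htt+/+ mice its log2 fold change was -0.12 (adjusted p = 0.0525). Ncor1 (0.02 and -0.04), Tbl1xr1 (-0.05 and -0.07) and Gps2 (0.08 and 0.02) did not pass. No entry of the MIER genes passed in either genotype, with log2 fold changes from -0.11 (Mier1, HttQ111/+) to 0.10 (the nested Mier2 entry, Htt+/+).

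Several members lie across from other genes. An opposite-strand gene, 2410133F24Rik, covers 50.5% of Sin3a and had a median of 0.913 CPM against 58.7 for Sin3a, and Gm14858 covers 36.6% of Hdac8 at a median of 0. Kdm1a shares 4241 bases with Luzp1 and Ncor1 shares 12026 bases with Ttc19, both on the opposite strand and both well expressed (92.8 and 105 CPM), and whether counting used strand was not stated, so reads in these stretches are uncertain.

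By groups that did not overlap, 4 members were higher in KO than in WT libraries in Htt+/+ mice (Hdac1, Chd3, Mta3 and Suds3) and 1 was lower (Brms1), where 2.41% and 2.29% of all genes tested did the same. In HttQ111/+ mice 1 member was higher (Hdac1) and 0 lower, against 0.833% and 0.6% of genes. Each shared day held 1 KO library, and its place was read for the 15 members past the threshold in any comparison. It lay outside its WT libraries in the direction of the average effect for 13 members on 27 May (Htt+/+), and in the opposite direction for 1. On 25 May (HttQ111/+) the numbers were 8 and 0. The share of all genes was not computed. These libraries entered the fits by which the 15 members were picked, so agreement in direction is partly built in and is no further result. For Mta3, the Htt+/+ KO library of 27 May had 37.0 CPM against 23.4 to 24.9 in 3 WT libraries. The HttQ111/+ KO library of 25 May had 30.5 CPM, within the 26.1 to 30.6 of 2 WT libraries. For Kdm1a the KO library was below its WT libraries on 27 May (58.2 against 59.6 to 63.3 CPM) and above them on 25 May (64.9 against 58.5 to 62.7 CPM). The libraries were also compared within the 3 series of mouse identifiers (A, V and Z) and each Htt genotype, which gave 6 sets of 1 to 5 KO against 1 to 5 WT libraries, among them 1 KO against 2 WT and 5 KO against 1 WT. These libraries also entered the fits that picked the 15 members, so the sets are no independent test. How many of all genes were apart in such small sets was not computed. Of the 15 members past the threshold in any comparison, Hdac1, Hdac2, Ing1 and Mta3 were apart in 6 of the 6 sets, Brms1, Chd3 and Suds3 in 5, and Sap30l and Zmym2 in 4. Rcor1, Kdm1a, Gatad2a and Tbl1x were apart in 3, Chd4 in 2 and Sin3b in 1.

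**Figure D4:**
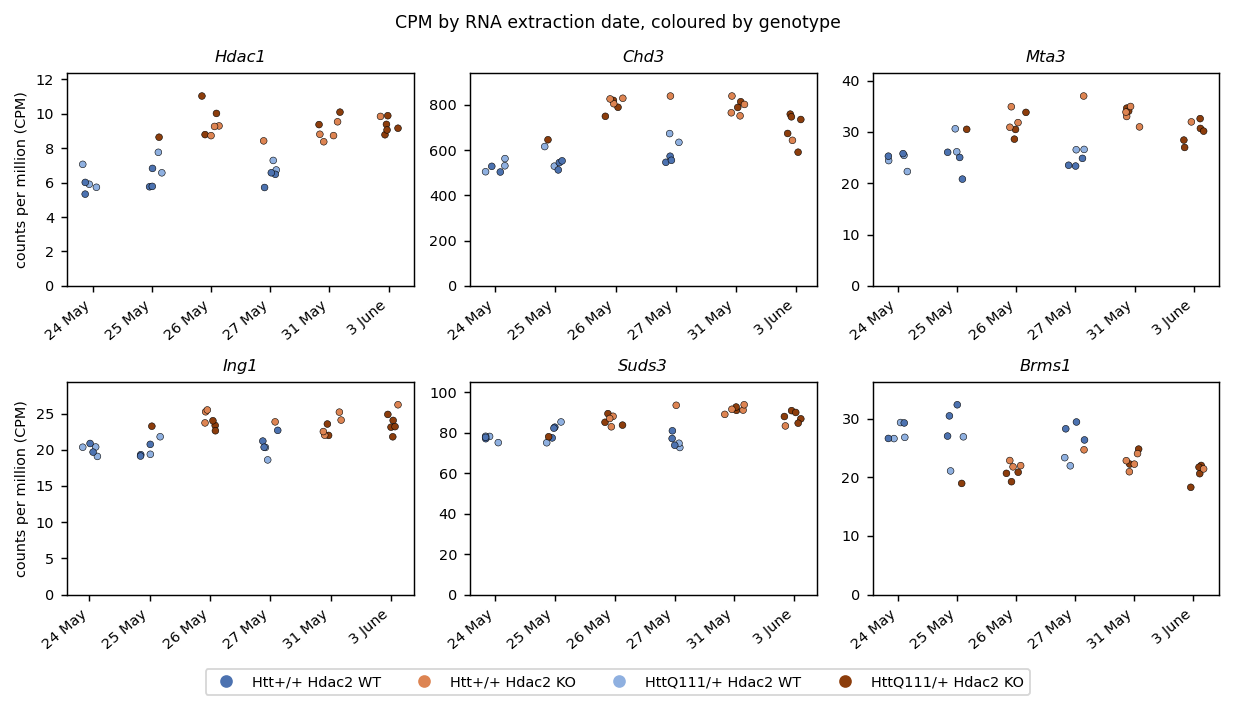
CPM (y axis, from 0) of 6 members in each library by RNA extraction date (x axis), coloured by genotype group. WT and KO striata of the same Htt genotype share 25 May and 27 May, where the KO library of Hdac1, Chd3 and Ing1 is above the WT libraries of its Htt genotype and that of Brms1 below them. For Mta3 and Suds3 the KO library is above them on 27 May and within their range on 25 May.

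A difference of the Hdac2 KO effects between Htt genotypes was not called for any member. For the difference (effect in HttQ111/+ minus effect in Htt+/+ mice) 0 of 45 entries passed, as did 0.00577% of all genes (1 of 17346); 3 members had an unadjusted p under 0.05 by edgeR and 0 passed with DESeq2. These 3 were Chd3 (log2 difference -0.18, p = 0.0126, adjusted p = 0.837), Sap130 (-0.17, p = 0.013, adjusted p = 0.839) and Mta1 (-0.10, p = 0.027, adjusted p = 0.867), all by the edgeR fit. For Hdac1 the difference was -0.05, with an interval of 2 SE on each side from -0.21 to 0.11. Members that passed in 1 genotype alone (5 in Htt+/+ and 2 in HttQ111/+ mice) were thus not shown to respond differently.

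The HttQ111 allele came with no called change in the complexes. With Hdac2 WT, 0 of 45 entries passed for HttQ111/+ against Htt+/+ (edgeR and DESeq2 alike, 7 at an unadjusted p under 0.05), where 0.403% of all genes did. With Hdac2 KO, 0 passed by either tool (5 at an unadjusted p under 0.05), where 0.00584% of genes did. The widest estimates with Hdac2 WT were Brms1 (log2 fold change -0.17, SE 0.0523, adjusted p = 0.182) and Chd3 (log2 fold change 0.16, SE 0.0553, adjusted p = 0.233). The 3 HttQ111/+ Hdac2 WT libraries of identifier series V had 616 to 673.5 CPM of Chd3 and 21.1 to 23.35 CPM of Brms1. All of these values lay beyond the Htt+/+ WT ranges given above, and those of the other libraries of the group lay within them. The 5 Htt+/+ Hdac2 WT libraries of series V had 512.9 to 573.4 CPM of Chd3 and 26.38 to 30.48 CPM of Brms1. The 3 HttQ111/+ Hdac2 WT mice of series V also had the longest CAG tracts of their group. Within that group series and repeat length therefore cannot be told apart, and the part of either was not tested. Hdac1 had a log2 fold change of 0.09 (SE 0.0639) with Hdac2 WT and 0.04 (SE 0.0485) with Hdac2 KO, and Hdac2 of 0.02 and -0.02. These comparisons share control groups with the Hdac2 KO comparisons, so a member's values in them are not independent. All members had absolute log2 fold changes of at most 0.17.

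**Figure D5:**
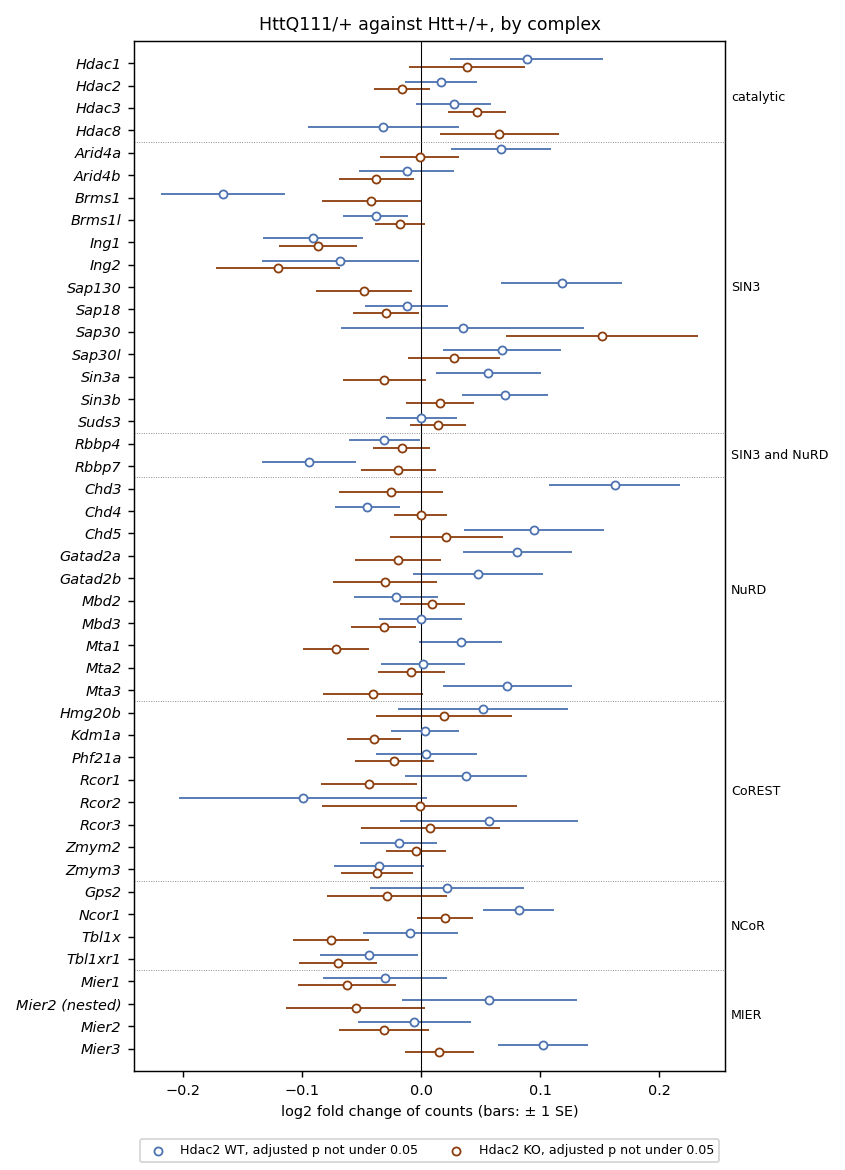
Log2 fold change of HttQ111/+ against Htt+/+ (x axis, bars ± 1 SE) for the 45 entries (y axis), with Hdac2 WT and with Hdac2 KO. No point passed an adjusted p of 0.05, and the widest estimates, for Chd3 and Brms1 with Hdac2 WT, are 0.16 and -0.17.

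Sex was compared over all groups as a control. For males against females 0 of 45 entries passed with edgeR or DESeq2 (3 at an unadjusted p under 0.05, namely Mta1, Mier3 and Zmym2), where 0.0807% of genes did. The X-linked members Hdac8, Tbl1x, Rbbp7 and Zmym3 had log2 differences from -0.02 to 0.04.

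Lists of genes that work with these complexes, and are no members, were counted in the same fits. Of 18 further or occasional subunits, 1 rose and 4 fell in Htt+/+ mice and 0 rose and 4 fell in HttQ111/+ mice, with the same 4 lower in both. Among them were Foxk1, a forkhead factor that binds SIN3 (log2 fold changes -0.21 and -0.26), Kdm5a, a histone demethylase (log2 fold changes -0.21 and -0.15) and Phf12, a PHD finger partner of SIN3 (log2 fold changes -0.17 and -0.11). The median log2 fold change of this list was -0.03 in Htt+/+ and -0.06 in HttQ111/+ mice. Of 30 DNA-binding factors known to recruit the complexes, 1 rose and 7 fell in Htt+/+, 1 rose and 5 fell in HttQ111/+ mice, and 5 fell in both. They were Insm1, a factor of neuroendocrine differentiation (log2 fold changes -0.30 and -0.25), Rarb, a retinoic acid receptor (log2 fold changes -0.30 and -0.24), the zinc finger repressors Zbtb7a (log2 fold changes -0.22 and -0.23) and Zeb1 (log2 fold changes -0.18 and -0.12), and Thra, a thyroid hormone receptor (log2 fold changes -0.11 and -0.13). The calls of Zeb1 and Phf12 in HttQ111/+ mice held under 5 and 6 of 14 other settings, and that of Phf12 in Htt+/+ mice under 7 of 14. As shares, 27.8% and 22.2% of the further subunits and 26.7% and 20% of the recruiting factors passed in Htt+/+ and HttQ111/+ mice, against the 17.8% and 16.5% of all genes. These lists, too, were chosen with earlier results of these data known, and the differences were not tested.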

How the data were processed

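RNA-seq of 35 mouse striata was analysed, with 1 library per mouse. The authors deposited raw read counts per gene, made by aligning reads with GSNAP to GRCm38 and counting unique alignments over whole gene intervals with bedtools, introns included, so counts of a gene with a near-identical copy are uncertain. Whether counting used strand was not given in the sources used here. The members and lists were chosen with earlier results of these data known. The 92 spike-ins, 6152 short genes (span up to 250 nt) and 2 rRNA genes of mitochondria did not enter the fits. Genes that reached 6 counts in all libraries of 1 or more compared groups were tested with the quasi-likelihood F test of edgeR 4.0.16 in R 4.3.3, with TMM scaling and 9 surrogate variables from sva 3.50.0, over all 35 libraries. P-values were adjusted by Benjamini-Hochberg over all genes tested, at a threshold of 0.05, and every adjusted p in the text is from this fit unless another covariate is named. The comparison of sexes used sex in place of surrogate variables. CPM were TMM-scaled. Named with full values were the class I deacetylases and the members past the threshold in any genotype comparison; the other lists were named where both Hdac2 KO comparisons passed, except 1 gene that is counted but not reported here. Alternatives were no surrogate variables, sex, extraction date or identifier series as covariates, a replicate block, DESeq2 1.42.0 size factors or its Wald test, no count filter, males alone, and libraries left out. Leaving out 3 single libraries that stood apart was chosen after seeing the data. Libraries held 50970712 to 77867348 counts. The fits were tested on simulated data. Exon sequences came from the GENCODE annotation of GRCm38 and promoters from RefSeq.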

Additional observations from a re-analysis of the deposited data

Results flagged for a closer look

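In 5 of 135 groups of values of a member, 1 library lay farther from the rest than Dixon's 95% limit allows, where chance would give about 1 in 20 groups, or 6.75. Chd3 was at 643.7 CPM in replicate 1 of the Htt+/+ Hdac2 KO group, the lowest there, and this library also had the highest oligodendrocyte marker sum. Arid4a was at 57.77 CPM in replicate 8 of the same group, the highest there. In the HttQ111/+ Hdac2 WT group, Sap130 was highest in replicate 3 (51.8 CPM), Gatad2a was highest in replicate 7 (27.91 CPM) and Zmym3 was lowest in replicate 7 (148.5 CPM). Replicate 7 was also the library with the highest cortical marker sum. The part of cell composition in these values was not tested.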

How the results depend on the processing

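Counts of members past the threshold depended most on the covariates. In Htt+/+ mice 12 passed for Hdac2 KO, 5 with extraction date, 19 with the libraries of the 2 groups alone, and 15 to 19 on leaving out each of 3 single libraries. The number of calls over all genes moved as well, with 3056, 822, 5094 and 3225 to 3555 genes in the same order. In HttQ111/+ mice 9 passed, 0 with extraction date and 10 to 13 on leaving out those libraries, against 2841, 331 and 2680 to 3436 of all genes. For the average effect 15 passed, 23 without surrogate variables, 24 with sex, 5 with extraction date, 23 with identifier series and 15 to 21 on leaving out those libraries. Over all genes 4341, 5509, 5568, 802, 5480 and 4404 to 5065 passed in the same order. For HttQ111 with Hdac2 WT 0 passed, 2 with identifier series (Brms1 and Mbd2) and 3 without the 2 mice with 1 floxed allele (Chd3, Brms1 and Chd5). Over all genes 69, 837 and 258 passed in the same order. The cause was not tested. The members and list genes named for passing kept the sign of each call under the alternatives run. Since extraction dates nearly follow Hdac2 genotype, date and genotype cannot be fully told apart. With a replicate block the counts were 17, 10 and 21 for the Htt+/+, HttQ111/+ and average Hdac2 KO effects, and 0 for the other comparisons. Over all genes 4351, 1854 and 5272 passed for these KO effects. The replicate numbers did not pair the samples. Correlations of same-numbered libraries ran from -0.175 to 0.399 over 8 pairs in Htt+/+ and from -0.0186 to 0.233 over 7 pairs in HttQ111/+ mice. In each, 1 library correlated best with its own number.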
